A study of Homo sapiens with 4 samples.

Results

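The 10 genes described here belong to the amino acid response that the transcription factor ATF4 directs: ATF4 itself, DDIT3, ATF3, CHAC1, TRIB3, ASNS, PSAT1, PHGDH, SESN2 and DDIT4. They were chosen by symbol, with earlier results of these arrays known, to ask whether CHAC1 moves with the other ATF4 targets from array to array. All 10 of 10 were measured, each by 1 probe set, among 17687 genes on the array. The samples were 4 arrays of total RNA from A549, an established human lung adenocarcinoma line. All 4 carried a short hairpin RNA against LDOC1 and were kept in medium with puromycin at 5 ug/mL, 10% serum and high glucose. Confluency was given as above 90% for all 4. Of these, 2 also expressed H2BK120R, a histone H2B that cannot be monoubiquitylated because its acceptor lysine is replaced by arginine, and 2 carried the empty vector. By the design text, depletion of LDOC1 raised monoubiquitylated H2B and the mutant lowered it. The labels do not say whether a line was 1 clone or whether replicates were separate cultures, so the errors here cover array-to-array spread that could be purely technical. No array had an unmutated H2B construct or intact LDOC1.

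ATF4 protein is made when eukaryotic initiation factor 2 is phosphorylated, by GCN2 when amino acids run short, by PERK in endoplasmic reticulum stress, by HRI in mitochondrial or heme stress or by PKR on double-stranded RNA. General translation then slows, while short reading frames at the start of the ATF4 messenger let its own translation go up. ATF4 activates genes for amino acid synthesis, uptake and transfer RNA charging, often through a composite element that it binds with a C/EBP partner. CHAC1, which cleaves the cell's glutathione, is one of its best known stress targets and lies downstream of ATF4, ATF3 and DDIT3. Arrays measure messenger levels, so the translational step was not seen here.

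The starts of the 10 genes were searched for that element. The genes were chosen as part of the ATF4 response, so the search is not independent of that choice. RefSeq windows on GRCh38.p14 from 250 bases before to 50 after each start were read on both strands for TGATGNAA, the core of the C/EBP and ATF response element. Windows of 3 members held it, and they are shown as the 250 bases before the start, 5′ to 3′ on the gene's strand, with the matching letters in capitals. CHAC1 (chr15:40953221-40953470, plus strand) has it on the opposite strand, 209 bases before the start. ASNS (chr7:97872409-97872658, minus strand, the first of 2 starts) has it 68 bases before the start. ATF3 (chr1:212565157-212565406, plus strand, the first of 2 starts) has it 191 bases before the start.
CHAC1: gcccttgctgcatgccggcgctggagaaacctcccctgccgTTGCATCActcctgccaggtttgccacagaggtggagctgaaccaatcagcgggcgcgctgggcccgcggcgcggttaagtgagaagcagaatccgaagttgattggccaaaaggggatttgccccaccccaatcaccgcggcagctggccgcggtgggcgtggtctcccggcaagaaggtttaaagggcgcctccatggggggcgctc
ASNS: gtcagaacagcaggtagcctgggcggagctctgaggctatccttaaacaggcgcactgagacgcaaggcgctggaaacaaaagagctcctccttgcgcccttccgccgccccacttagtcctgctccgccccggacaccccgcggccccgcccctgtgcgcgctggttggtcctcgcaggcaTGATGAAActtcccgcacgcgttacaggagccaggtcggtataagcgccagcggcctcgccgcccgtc
ATF3: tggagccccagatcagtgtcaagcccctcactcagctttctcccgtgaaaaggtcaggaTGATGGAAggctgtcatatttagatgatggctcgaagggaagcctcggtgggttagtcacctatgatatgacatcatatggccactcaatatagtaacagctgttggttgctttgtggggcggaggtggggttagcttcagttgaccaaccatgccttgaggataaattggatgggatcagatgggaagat
Of all 35116 windows in the table, 3.62% held TGATGNAA, and 3.59% of the measured genes with a window did so in at least 1 window. The palindrome TGACGTCA, the full cyclic AMP response element, was in 0 of the 10 members' windows and in 1.85% of all windows. A match is only a description of these letters, and a window without one says nothing about binding elsewhere.

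CHAC1 had the largest difference of the 10 genes. It was measured at 9.56 and 9.61 (log2 level) in replicates 1 and 2 with H2BK120R, and at 8.01 and 9.20 in replicates 1 and 2 with the vector. Both arrays with the mutant lay above both vector arrays, and vector replicate 1 stood far below the other 3. The mean was 9.59 ± 0.04 with H2BK120R and 8.61 ± 0.84 with the vector (SD, n = 2 each). The difference was 0.98 ± 0.32 on the log2 scale (limma standard error), or 1.97-fold. Of the 17687 genes, 32, CHAC1 included, were at or above it. Every limma standard error here is moderated: it draws on genes of similar level, with 8.95 prior against 2 residual degrees of freedom. For CHAC1 it is smaller than its own arrays alone would give, since their pooled within-group SD was 0.60. The contrast between the groups was known when the gene was chosen, so the difference is given as a description, without a test. The size rests on vector replicate 1: without that array the difference was 0.39, or 1.31-fold, and against that array alone it was 1.58, or 2.98-fold. Leaving out either array with H2BK120R gave 0.96 or 1.01.

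The vector pair disagreed more for CHAC1 than for most genes. The gap of 1.19 between those 2 arrays compares with a median gap of 0.26 over all genes, and 299 genes (1.69%) had a gap as large or larger in either direction. Among the 1486 genes whose mean level was within 0.5 of that of CHAC1, the median gap was 0.24 and 8, CHAC1 included, reached 1.19. The arrays were normalized before deposit, so whether vector replicate 1 was low as a whole cannot be read from this table. CHAC2, the paralog of CHAC1 that degrades glutathione at a slow constant rate, stood at 7.40 and 7.44 with the mutant and at 7.52 and 7.48 with the vector, a difference of -0.08 ± 0.24 (SE).

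**Figure D1:**
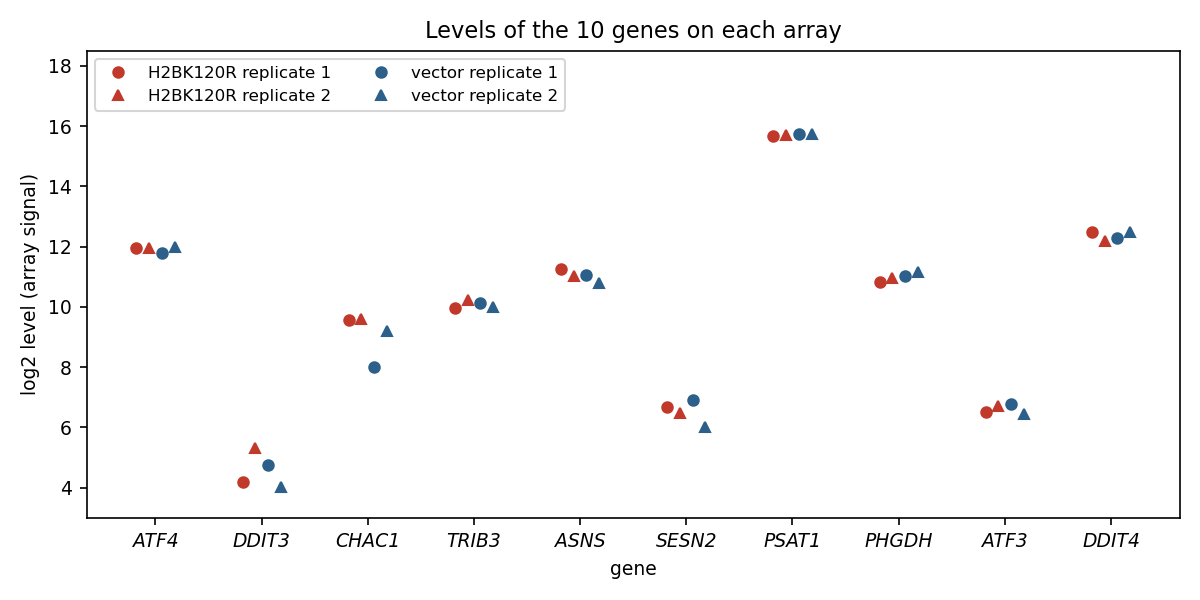
Log2 level of each of the 10 genes on each of the 4 arrays, red for H2BK120R and blue for the vector, circles for replicate 1 and triangles for replicate 2. The CHAC1 circle of the vector is at 8.01, below its other 3 points at 9.20 to 9.61. Heights of different genes come from different probes and are not comparable.

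ATF4, the regulator of the group, was nearly level across the arrays. It was at 11.96 in both arrays with H2BK120R and at 11.80 and 11.98 in vector replicates 1 and 2. The groups overlapped, and the difference was 0.07 ± 0.14 (SE). Its highest and lowest arrays lay 0.18 apart, where those of CHAC1 lay 1.6 apart.

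DDIT3, which encodes CHOP, the C/EBP-family factor that ATF4 induces, was at 4.18 and 5.32 with H2BK120R and at 4.76 and 4.02 with the vector. The 2 mutant arrays lay 1.14 apart and enclosed vector replicate 1, so the groups overlapped, and the difference was 0.36 ± 0.42 (SE). Its direction depended on the array: without H2BK120R replicate 2 it was -0.21, and without vector replicate 1 it was 0.73. ATF3, a stress-induced factor of the same bZIP class, was at 6.50 and 6.71 with the mutant and at 6.78 and 6.44 with the vector, a difference of -0.005 ± 0.28 (SE) with overlapping groups.

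TRIB3, the pseudokinase that ATF4 and CHOP induce and that in turn restrains ATF4, was at 9.96 and 10.24 with H2BK120R and at 10.12 and 9.99 with the vector. Both vector values lay between the mutant ones, and the difference was 0.04 ± 0.18 (SE). Like CHAC1, TRIB3 is counted among the genes that answer to ATF4 and CHOP together. It did not share the low value of CHAC1 in vector replicate 1, where it was 0.13 above vector replicate 2.

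The enzymes of amino acid synthesis differed little. ASNS, asparagine synthetase, was at 11.25 and 11.02 with H2BK120R and at 11.06 and 10.80 with the vector. The groups overlapped, and the difference of 0.20 ± 0.17 (SE) was the next largest above zero after DDIT3. PSAT1, the aminotransferase of serine synthesis, was at 15.67 and 15.70 with the mutant and at 15.73 in both vector arrays. PHGDH, the first enzyme of that pathway, was at 10.84 and 10.97 with the mutant and at 11.03 and 11.17 with the vector. For both of these serine genes the mutant arrays lay below the vector arrays, opposite to CHAC1, with differences of -0.04 ± 0.10 and -0.20 ± 0.15 (SE).

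The 2 members that restrain the growth kinase mTORC1 also overlapped between groups. SESN2, the leucine sensor sestrin 2, was at 6.67 and 6.47 with H2BK120R and at 6.92 and 6.01 with the vector. Vector replicate 1 held its highest value and vector replicate 2 its lowest, so the gap of 0.91 within the vector pair ran against that of CHAC1. Its difference was 0.10 ± 0.33 (SE), -0.35 without vector replicate 2 and 0.56 without vector replicate 1. DDIT4, or REDD1, which is also a hypoxia and p53 target, was at 12.49 and 12.19 with the mutant and at 12.28 and 12.50 with the vector, a difference of -0.05 ± 0.15 (SE).

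Array by array, the low value of CHAC1 in vector replicate 1 was not seen in most of the other 9 genes. In vector replicate 1 CHAC1 was 1.08 below its own mean over the 4 arrays. There 7 of the other 9 were above theirs and 2, ATF4 and DDIT4, were below. Of the 7, PSAT1, ASNS, PHGDH and TRIB3 were nearly level, above their means by only 0.02 to 0.04. This count was not made over all genes. Between the vector arrays, 3 of the 9 (ATF4, PHGDH and DDIT4) were lower in replicate 1 as CHAC1 was, 5 were higher and PSAT1 was equal. Over all genes, 49.4% were lower in vector replicate 1. Between the mutant arrays, where CHAC1 differed by only 0.05, 5 of the 9 were lower in replicate 1, 3 were higher and ATF4 was equal. The median deviation of the 9 genes stayed between -0.09 and 0.03 on every array. With 4 arrays no correlation is given.

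**Figure D2:**
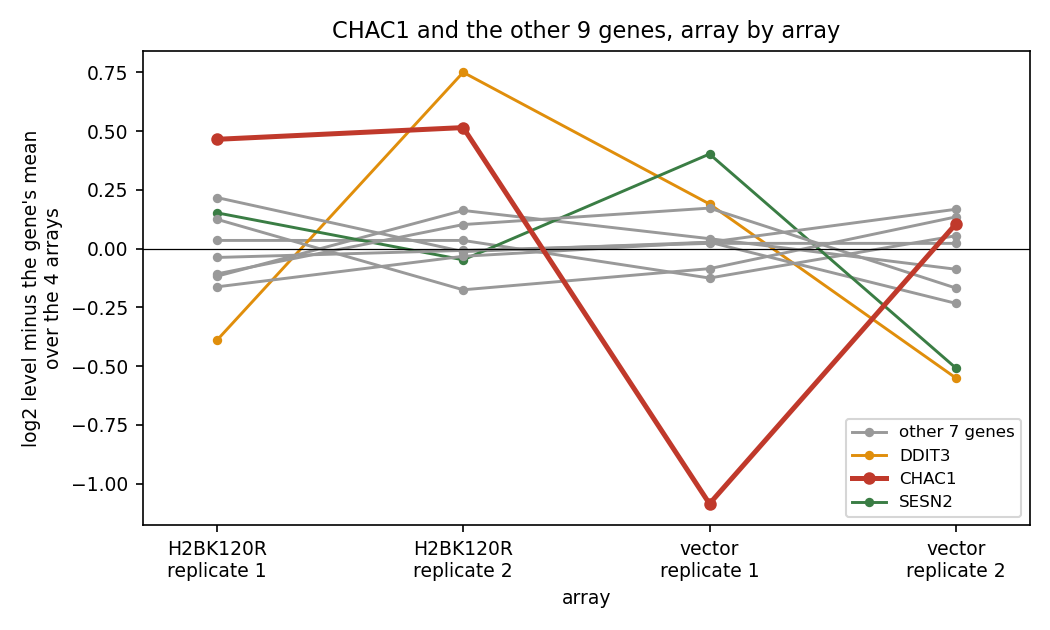
Log2 level minus the gene's own mean over the 4 arrays, for each array, with CHAC1 in red, DDIT3 in orange, SESN2 in green and the remaining 7 genes in grey. CHAC1 is at -1.08 in vector replicate 1 while SESN2 and DDIT3 are above zero there, and the grey lines stay near zero.

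Of the 10 genes, 6 were higher on average with H2BK120R and 4 were lower, and 49.9% of all 21448 probe sets were higher. The groups did not overlap for 3 members (CHAC1 higher, PSAT1 and PHGDH lower), and 36.5% of all probe sets were without overlap (18.6% higher and 17.9% lower). The rule drew on this contrast, so nothing is read from these counts. The median difference was 0.06, and 0.04 over the 9 genes other than CHAC1, against 0 over all probe sets. Leaving out 1 array gave 0.14 (vector replicate 1), 0.08 (H2BK120R replicate 1), 0.005 (H2BK120R replicate 2) or -0.015 (vector replicate 2). Apart from CHAC1 and DDIT3, the other 8 differed by less than 0.25 in either direction. Without vector replicate 1, and so against vector replicate 2 alone, DDIT3 (0.73) and SESN2 (0.56) had larger differences than CHAC1 (0.39). ASNS was then at 0.34. Vector replicate 2 held the lowest value of DDIT3, of SESN2 and of ASNS. DDIT3 lies below the median level of 6.41 and has no detection call, so its differences may not be those of a signal above background. SESN2, at 6.01 to 6.92, lies around that median and has no detection call either.

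**Figure D3:**
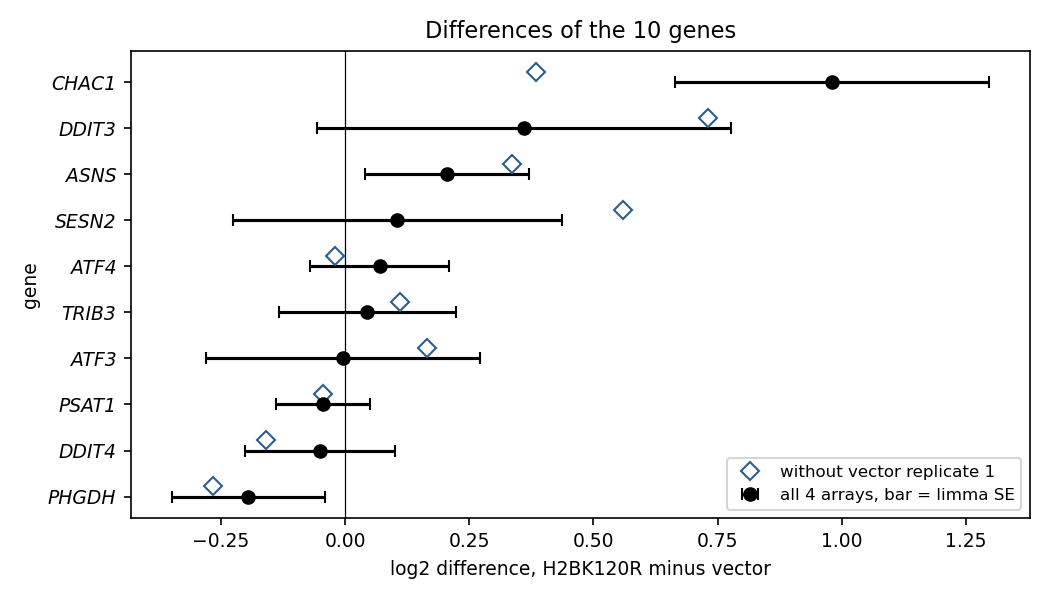
Difference H2BK120R minus vector (log2) for each gene, filled circles with bars of 1 limma standard error for all 4 arrays, open diamonds for the value without vector replicate 1. CHAC1 moves from 0.98 to 0.39 and SESN2 from 0.10 to 0.56 when that array is left out.

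The remaining genes of the pathway were taken from 8 lists picked by function, with 110 genes measured. In limma over all 21448 probe sets, 0 of the 110 passed a Benjamini-Hochberg adjusted p of 0.05, and 0% of all probe sets did. At an unadjusted p under 0.05 there were 5 higher and 1 lower with H2BK120R, or 5.45% of the 110, where 6.7% of all probe sets reached it (3.62% higher and 3.08% lower). With 1 array left out this number was 1 (H2BK120R replicate 2), 2 (vector replicate 1), 5 (H2BK120R replicate 1) or 14 (vector replicate 2). Of the 110, 56 were higher, 53 lower and 1 equal, with a median of 0.01 (0.01 over all genes). The groups did not overlap for 38, or 34.5%, beside 36.5% of all probe sets.

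Transporters held the gene with the smallest limma p of the 110. SLC38A2, the amino acid carrier SNAT2, was at 16.47 and 16.59 with H2BK120R and at 16.00 and 16.34 with the vector, a difference of 0.36 ± 0.12 (SE; limma adjusted p = 0.693). SLC7A11, the cystine importer that feeds glutathione synthesis, differed by 0.23 ± 0.11 and SLC38A1 by 0.24 ± 0.13. Without vector replicate 1 the difference was 0.19 for SLC38A2 and 0.08 for SLC38A1, and 0.26 for SLC7A11. The list had 6 of 11 genes above the vector and 5 below, its median being 0.01. SLC7A5, the large neutral carrier, differed by -0.09 ± 0.10.

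Synthesis and one-carbon enzymes had 4 of 11 genes higher and 7 lower, with a median of -0.04. The 3 with the smallest p were MTHFD1, a folate enzyme (-0.12 ± 0.12), ALDH18A1, of proline synthesis (-0.12 ± 0.14), and PYCR1, also of proline synthesis (0.20 ± 0.21). PSPH, which completes serine synthesis after PHGDH and PSAT1, differed by -0.04 ± 0.22 and SHMT2 by -0.04 ± 0.10. Without vector replicate 1, MTHFD1 was at -0.20, PSPH at -0.20 and SHMT2 at -0.10, and PYCR1 turned to -0.07.

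Genes that charge or export transfer RNAs were higher for 7 of 11 and lower for 4, with a median of 0.06. EPRS1 differed by 0.43 ± 0.19 (limma adjusted p = 0.745), from 10.59 and 10.75 with the mutant against 9.99 and 10.49 with the vector. NARS1 and YARS1 differed by 0.18 ± 0.12 and 0.22 ± 0.21. Without vector replicate 1 the difference of EPRS1 was 0.18 and that of YARS1 turned to -0.04, while NARS1 stayed at 0.17. In 10 of these 11 genes vector replicate 1 was lower than vector replicate 2, the direction seen for CHAC1. In these 10, replicate 1 minus replicate 2 ran from -0.62 for SARS1 to -0.01 for CARS1, against -1.19 for CHAC1. Without vector replicate 1 the median was -0.05. That direction was found in 49.4% of all genes and in 63 of the 110. By list it ran from 3 of 11 transporters to these 10 of 11, and 8 of the 9 genes listed for A549 had it.

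The kinases and factors upstream of ATF4 differed in both directions. EIF2AK1, the kinase HRI, was at 14.37 and 14.53 with H2BK120R and at 13.98 and 14.20 with the vector, a difference of 0.36 ± 0.12 (SE; limma adjusted p = 0.717). IMPACT, an inhibitor of GCN2, differed by 0.53 ± 0.23 and EIF2B1, a subunit of the exchange factor eIF2B, by -0.32 ± 0.14, each with a limma adjusted p of 0.745. IMPACT was at 9.11 and 9 with the mutant and at 8.26 and 8.79 with the vector. Without vector replicate 1 the difference was 0.26 for IMPACT, 0.25 for EIF2AK1 and -0.40 for EIF2B1. EIF2AK4, which encodes GCN2, was at 7.15 and 7.50 with the mutant and at 7.66 and 6.98 with the vector. EIF2AK3, which encodes PERK, was lower in both mutant arrays, at 6.36 and 6.66 against 6.91 and 7.08. These values are near the median level of 6.41 and have no detection call. EIF2AK2, which encodes PKR, was higher in both mutant arrays, at 13.49 and 13.57 against 13.22 and 13.43. The list had 12 of 19 genes above the vector and 7 below, its median being 0.02.

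Stress regulators and secreted targets had 7 of 16 higher, 8 lower and 1 equal, with a median of -0.02. CEBPG, a C/EBP partner of ATF4, differed by -0.20 ± 0.14, the secreted glycoprotein gene STC2 by -0.28 ± 0.25 and GADD45A by 0.32 ± 0.26. STC2 was at 10.53 and 10.22 with the mutant and at 11.09 and 10.22 with the vector, and without vector replicate 1 its sign turned, to 0.16. PPP1R15A, the phosphatase subunit GADD34 that reverses the stress signal, differed by -0.18 ± 0.27. Targets of the other branches of endoplasmic reticulum stress had 10 of 17 higher and 7 lower, with a median of 0.06. HSPA5, the chaperone BiP, was at 14.49 and 14.48 with the mutant and at 14.35 and 14.63 with the vector. HERPUD1 differed by -0.32 ± 0.16, DNAJC3 by 0.30 ± 0.15 and EDEM1 by 0.30 ± 0.17.

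Glutathione genes, the metabolic neighbours of CHAC1, had 4 of 11 higher and 7 lower, with a median of -0.06. OPLAH, which recovers glutamate from the product of CHAC1, differed by -0.44 ± 0.33, CNDP2, which cleaves the dipeptide that CHAC1 leaves, by -0.23 ± 0.15, and the reductase GSR by -0.10 ± 0.09. Without vector replicate 1, OPLAH was at -0.27 and CNDP2 at -0.03. Genes of amino acid sensing at mTORC1 had 6 of 14 higher and 8 lower, with a median of -0.13. NPRL3, of the GATOR1 complex, differed by 0.54 ± 0.20 (limma adjusted p = 0.738), the arginine sensor CASTOR1 by 0.52 ± 0.26 and the GTPase RRAGC by -0.35 ± 0.17. The difference of NPRL3 was 0.34 without vector replicate 1. Other genes of GATOR1 went the other way: NPRL2 differed by -0.56 ± 0.31 and DEPDC5 by -0.485 ± 0.29, each lower in both mutant arrays. Without vector replicate 1 these were -0.605 and -0.415. NPRL2, at 4.77 to 5.58, and OPLAH, at 5.13 to 6.09, lay below the median level of 6.41. DEPDC5, at 5.98 to 6.77, lay around it. None of them has a detection call, so their differences may not be those of a signal above background.

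**Figure D4:**
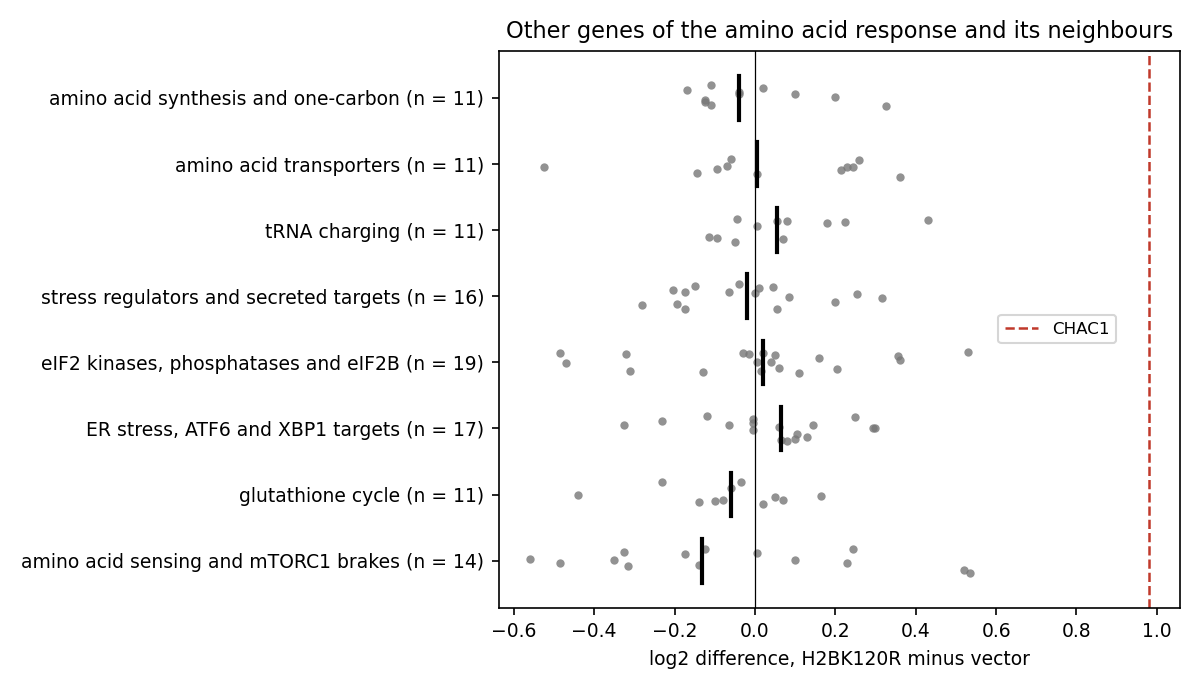
Difference H2BK120R minus vector (log2) of each measured gene in 8 lists of the amino acid response and its neighbours, 1 point per gene, with the list median as a black bar and CHAC1 as a dashed red line at 0.98. The points lie between -0.56 and 0.54, with medians from -0.13 to 0.06.

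The 8 letters in the CHAC1 window read TGATGCAA on the strand of the match. The same letters were in 15 of the 89 other pathway genes with a window (16.9%), and in 131 of 14250 measured genes with a window (0.919%). Of the 10 members 1, CHAC1, held them. The lists were picked by function in this response, so their share is not independent of that choice. CHAC1 and 4 of the 15 genes are shown over 30 bases, 5′ to 3′ on the strand of the match. The shared letters are in capitals, to set genes with the same element beside their differences. The stretches are at chr15:40953251-40953280 for CHAC1, chr16:70289675-70289704 for AARS1, chr19:33374060-33374089 for CEBPG, chr16:56931955-56931984 for HERPUD1 and chr19:46784893-46784922 for SLC1A5 (GRCh38.p14). They run on the minus strand for CHAC1, HERPUD1 and SLC1A5 and on the plus strand for AARS1 and CEBPG.
CHAC1: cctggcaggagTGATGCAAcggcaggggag
AARS1: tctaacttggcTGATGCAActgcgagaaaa
CEBPG: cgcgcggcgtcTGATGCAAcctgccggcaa
HERPUD1: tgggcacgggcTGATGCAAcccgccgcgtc
SLC1A5: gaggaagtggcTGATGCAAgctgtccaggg
AARS1, alanyl-tRNA synthetase, differed by -0.04 ± 0.13 (-0.17 without vector replicate 1) and SLC1A5, the glutamine carrier ASCT2, by -0.07 ± 0.13. CEBPG and HERPUD1 were lower in both mutant arrays, by the values above. Of the 15 genes 7 were higher with H2BK120R and 8 lower, between -0.32 and 0.22, with a median of -0.04. All 4 genes shown beside CHAC1 were among the 8, so they do not represent the 15. Those higher, none of them shown, included SLC1A4 (0.22), JDP2 (0.20) and NARS1 (0.18). In 12 of the 15, vector replicate 1 was lower than vector replicate 2, as for CHAC1. Replicate 1 minus replicate 2 ran from -0.35 for IARS1 to -0.01 for CARS1 in these 12, against -1.19 for CHAC1. Among the 12, AARS1, CARS1, IARS1, NARS1 and TARS1 were already counted with the transfer RNA genes above. Of all 131 measured genes with these letters, 67 were lower in vector replicate 1 and 62 higher. Of the 14250 genes with a window, 7096 were lower there. The 15 genes were gathered after the values of CHAC1 were known, and no test was made.

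The 5 genes whose course over the 4 arrays was nearest to that of CHAC1 were TAS2R13, PSRC1, CFAP44, LINC01547 and ZNF248. Likeness was the root mean square distance between values centred on each gene's mean, which was 0.04 for TAS2R13 and 0.10 for ZNF248. TAS2R13, a bitter taste receptor, was at 5.17 and 5.12 with H2BK120R and at 3.60 and 4.81 with the vector. PSRC1, a spindle protein, was at 6.01 and 6.07 with the mutant and at 4.49 and 5.54 with the vector. TAS2R13, PSRC1 and CFAP44 had mean levels below the median of 6.41 and have no detection call. Their courses may therefore not be those of a signal above background. For the 9 other members the distance ran from 0.58 for ATF4 to 0.87 for SESN2. The distance is not scaled, so a nearly level gene such as PSAT1, with a range of 0.06, also scored 0.66. It therefore does not tell a level course from an opposed one.

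The labelled cell type was checked against its markers. The 9 genes listed for A549, the keratins KRT8 and KRT18 and the line's abundant redox enzymes NQO1 and AKR1C1 among them, averaged 12.92 to 13.05 per array. Of these, 2 epithelial markers were low, EPCAM at 5.16 to 5.76 and KRT19 at 6.31 to 7.10, where the median over all probe sets was 6.41. The 7 markers of alveolar type II cells averaged 4.88 to 5.10, the 5 measured leukocyte markers 5.21 to 5.45 and the 7 fibroblast and endothelial markers 4.90 to 5.11. Not every gene of those 3 lists was low, since ABCA3 was at 7.79 to 8.30, CD68 at 7.77 to 7.97 and COL1A2 at 8.10 to 8.41. The table holds no detection calls, so no gene can be called absent or present. With limma 0 of the 28 measured markers reached an adjusted p of 0.05, and 2, CDH1 and LAMP3, had an unadjusted p under 0.05, which is 7.14% beside 6.7% of all probe sets.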

How the data were processed

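RNA of 4 samples was measured on an Affymetrix whole-transcript array, 2 with H2BK120R and 2 with the vector, grouped by title. The authors deposited a table of log2 levels normalized between arrays; the base is inferred from the range of 1.56 to 19.15 and the normalization from array medians of 6.40 to 6.43. With another base all differences would scale. Per the submitters' processing notes the tool was MAS5, its version, background correction and build being not given in the sources used here. Probe sets were named through GEO's platform annotation (17709 of 21448 with 1 symbol, 0 with several), gene IDs were checked in RefSeq for GRCh38.p14, and the brightest probe set stood for a gene. Any pair of arrays shared 207 to 309 identical values, so none was a copy. Groups were compared with limma 3.58.1 (R 4.3.3; lmFit and eBayes with trend, two-sided, no covariate) over all 21448 probe sets, with Benjamini-Hochberg adjustment; the fit was tested on simulated data. The number of arrays limits the precision. Members and lists were chosen with earlier results of these data known. Named were all members, the 3 genes with the smallest p in each list, CHAC2 and the 5 genes nearest to CHAC1; other list genes were added for their role after their values were seen. Figures used Python 3.11.15 and matplotlib 3.10.9. Alternatives were quantile normalization, equal medians, the dimmest 50% left out, eBayes without trend or robust, the replicate number as a block, and each array left out.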

Additional observations from a re-analysis of the deposited data

How the results depend on the processing

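Under every alternative tried, limma called 0 probe sets, and 0 of the other pathway genes, at an adjusted p of 0.05. At an unadjusted p under 0.05 it called 1437 probe sets, 903 once the dimmest 50% were dropped from testing, and 495 to 2427 with 1 array removed: 495 for H2BK120R replicate 2, 744 for H2BK120R replicate 1 and 2427 for vector replicate 2. Among the 110 other pathway genes it called 6, 3 with no variance trend, and 1 to 14 with 1 array removed. With the replicate number as a block it called 10, and 1846 of all probe sets. The labels do not say what equal replicate numbers share, and 2 pairs cannot settle whether they pair the arrays: the differences between replicates 1 and 2 in the 2 groups correlated at 0.14 across probe sets. The CHAC1 difference was 0.96 after quantile normalization, 0.97 with equal medians and 0.39 to 1.58 with 1 array removed, above zero each time. The median of the 10 members was 0.022 after quantile normalization and -0.015 to 0.14 with 1 array removed, and 4 to 7 members were higher. Other than through fewer probe sets or arrays, why these values changed was not tested. A group left with 1 array was given the spread of the other group.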
